A study of Mus musculus with 6 samples.

Results

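The heparan sulfate 3-O-sulfotransferases were measured in MLE-15 cells, an immortalised mouse lung epithelial line, with and without phorbol ester. The members were the 6 listed genes Hs3st1, Hs3st2, Hs3st3a1, Hs3st3b1, Hs3st5 and Hs3st6, found through the RefSeq accession in the name of each probe set. They made up 6 of the 909 named genes and 6 of the 1246 probe sets in the table, with 1 probe set each. Hs3st4, the remaining gene of the family in the RefSeq table, had no probe set named here and was not analysed. The series set 3 arrays of control cells beside 3 of cells stimulated with the protein kinase C activator PMA, a phorbol ester, at 10 nM for 24 h, and asked whether sulfotransferases, sialyltransferases and mucins are expressed and induced. The dose and time come from the series design text. All arrays came from this single line, which was derived from a lung tumour of a mouse carrying the SV40 large T antigen under a surfactant protein C promoter. Nothing in the labels ties the replicates to separate cultures, and every p-value here reflects only how far these arrays spread, which may be technical.

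Heparan sulfate is a glycosaminoglycan chain carried by cell surface and matrix proteoglycans, and it is sulfated in steps by N-, 2-O-, 6-O- and 3-O-sulfotransferases in the Golgi. Sulfation of glucosamine at the 3-O position is the last and rarest of these steps, and the isoforms differ in the saccharides they act on. Hs3st1 makes the site that binds antithrombin, Hs3st2, Hs3st3a1, Hs3st3b1 and Hs3st6 belong to the group that makes sites for glycoprotein D of herpes simplex virus, and Hs3st5 can make both.

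Values are RMA levels on the log2 scale, so a difference of 1 is a doubling of signal. Array medians lay between 5.64 and 5.71 and lower quartiles between 4.32 and 4.43. Probe sets differ in their response, so levels of different members are not ranked against each other. No control probe sets were in the table, and no member could be called present or absent. The arrays numbered 1 stood apart from those numbered 2 and 3 in both groups, so each PMA difference is given within numbers and over numbers 2 and 3 alone. Of 13 lung epithelial markers only Sftpa1 and Sftpd were measured. Sftpa1 had group means of 3.53 and 3.49, under the lower quartile of every array, and Sftpd of 5.42 and 5.38, under every median.

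None of the 6 genes passed for PMA by the test used, limma with Benjamini-Hochberg adjustment over all probe sets. This does not show that they were unchanged. The 2 number 1 arrays differed from the other 4 in 3 of the 6 genes: Hs3st1 and Hs3st3a1 were lower there, and Hs3st6 was higher. Of all probe sets 41.7% passed in that contrast, 27.5% higher and 14.1% lower, so the family's share was near the background. The labels name no condition that sets number 1 apart.

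**Figure D1:**
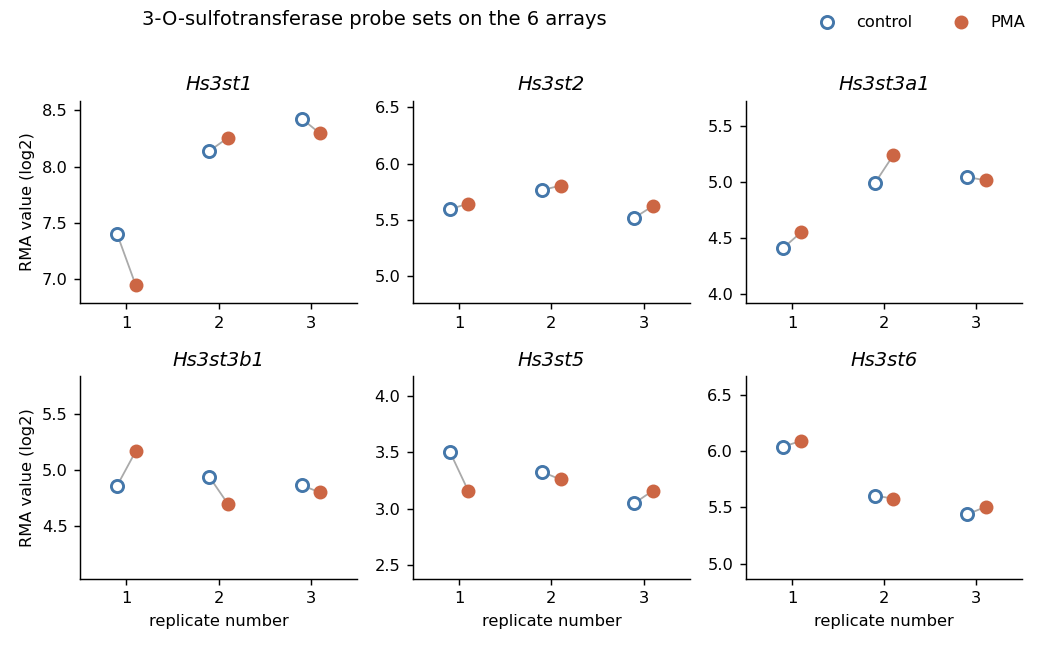
RMA value (log2) of each 3-O-sulfotransferase probe set against replicate number, with open circles for control and filled circles for PMA arrays, a grey line joining the arrays of 1 number, and a vertical span of the same size in each panel. In Hs3st1 and Hs3st3a1 both number 1 arrays lie under the other 4, and in Hs3st6 both lie above them.

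Hs3st1, the antithrombin-type enzyme, read 7.40, 8.14 and 8.43 in control arrays 1, 2 and 3 and 6.95, 8.26 and 8.29 in PMA arrays 1, 2 and 3. Both number 1 arrays were the low ones, and the control and PMA groups overlapped. The group means were 7.99 ± 0.53 and 7.83 ± 0.77 (SD, n = 3 each). PMA minus control was -0.45 in number 1, 0.12 in number 2 and -0.13 in number 3. The mean difference of -0.16 log2 units (SE 0.46) did not pass, and over numbers 2 and 3 alone it was -0.0076, so its size rested on number 1.

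Hs3st5, which makes both kinds of site, read 3.50, 3.33 and 3.05 in controls and 3.16, 3.26 and 3.16 in PMA arrays. All 6 values lay under the lower quartile of every array, so this probe set was dim throughout. The groups overlapped, and the numbers gave PMA differences of -0.35, -0.068 and 0.11. The mean difference of -0.10 (SE 0.13) did not pass and was 0.022 without number 1.

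Among the glycoprotein D-type enzymes, Hs3st2 read 5.59, 5.77 and 5.52 in controls and 5.64, 5.80 and 5.62 in PMA arrays. It was the only member with a PMA value above control in all 3 numbers, by 0.050, 0.040 and 0.11. Over all probe sets 23.1% had the same sign in all 3 numbers. The mean difference of 0.065 (SE 0.094) did not pass and was 0.072 over numbers 2 and 3 alone. The values of the 6 arrays ran from 5.52 to 5.80, a span of 0.29.

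Hs3st3a1 and Hs3st3b1 are close relatives that both lie on chromosome 11, with 1 protein-coding gene, Cox10, between them in the RefSeq table. Hs3st3a1 read 4.41, 4.99 and 5.05 in controls and 4.55, 5.24 and 5.01 in PMA arrays. Its number 1 values were the low ones in both groups. Hs3st3b1 read 4.86, 4.94 and 4.86 in controls and 5.16, 4.70 and 4.80 in PMA arrays. The PMA differences by number were 0.14, 0.25 and -0.031 for Hs3st3a1. They were 0.30, -0.24 and -0.065 for Hs3st3b1, where PMA 1 was the highest and PMA 2 the lowest of the 6 arrays. Their mean differences, 0.12 (SE 0.25) and -0.00016 (SE 0.13), did not pass. Over numbers 2 and 3 alone that of Hs3st3a1 was 0.11, and that of Hs3st3b1 was -0.15 (SE 0.078, unadjusted p = 0.0909 and adjusted p = 0.996 by limma), so the mean of Hs3st3b1 near 0 rested on number 1. The enzymes share much of their coding sequence, and the Hs3st3a1 probe set carries the suffix s, which marks probes that can bind several transcripts. Its values are therefore uncertain as a measure of Hs3st3a1 alone. The probe sets of Hs3st1 and Hs3st2 carry the same suffix.

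Hs3st6 read 6.04, 5.60 and 5.44 in controls and 6.09, 5.58 and 5.50 in PMA arrays. The number 1 value was the high one in both groups. The PMA differences by number were 0.053, -0.025 and 0.067, and the mean difference of 0.031 (SE 0.23) did not pass and was 0.021 over numbers 2 and 3 alone.

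For PMA 0 of the 6 members and 0% of all probe sets passed limma's test at an adjusted p of 0.05. Without adjustment 0 members were under 0.05, against 4 of the 1246 probe sets. Fitting the replicate number as a block again gave 0 members on both counts. In that fit 42 of the 1246 probe sets were under 0.05 without adjustment. The PMA mean was higher in 3 members and lower in 3, and the median difference was 0.016, against 0.0033 over all probe sets. The control and PMA groups overlapped in every member, while they did not overlap in 3.37% of all probe sets. The 95% interval of the PMA effect lay within 1 log2 unit of 0 for 5 members without the block, the exception being Hs3st1 at -1.31 to 1.00. With the block it lay within 0.585 log2 units, a change of 1.5-fold, for all 6. The widest blocked interval was that of Hs3st1, from a 0.766-fold to a 1.05-fold level, and that of Hs3st3a1 ran from 0.967-fold to 1.22-fold.

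**Figure D2:**
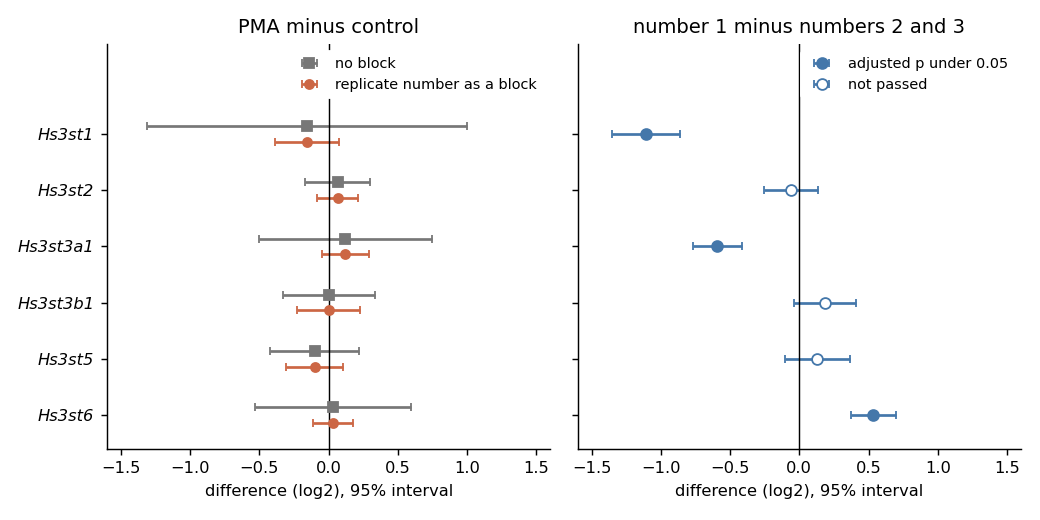
Differences on the log2 scale with limma's 95% intervals, for PMA minus control on the left (grey squares without a block, filled circles with the replicate number as a block) and for number 1 minus numbers 2 and 3 on the right (filled where the adjusted p was under 0.05). Every PMA interval includes 0, and the blocked ones are narrower, most of all for Hs3st1. On the right Hs3st1 and Hs3st3a1 lie left of 0 and Hs3st6 lies right of it.

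Whether the PMA difference depended on the number was tested with an interaction term. The PMA difference in number 1 minus that in numbers 2 and 3 was 0.46 (SE 0.14) for Hs3st3b1 and -0.44 (SE 0.18) for Hs3st1. These had unadjusted p = 0.0112 and 0.0421 by limma, but adjusted p = 0.647 and 0.743. Before adjustment 70 of the 1246 probe sets were under 0.05. With it 0 of 6 members passed, against 0.0803% of all probe sets. After quantile normalization over the table the value of Hs3st1 was -0.25. For Hs3st5 the value was -0.37 (SE 0.18), and for the other 3 members it lay between -0.022 and 0.034.

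The number 1 arrays were then compared with the other 4, with PMA as a term in the fit. This contrast sets 1 number against 2 and was chosen with the distance of number 1 already known. Of the 6 members 3 passed, 1 higher and 2 lower in number 1, while 41.7% of all probe sets passed, 27.5% higher and 14.1% lower. These were 343 higher and 176 lower probe sets, and 278 and 232 after quantile normalization over the table, with the same 3 members called in the same directions. The family's share is therefore near the background of this contrast. The median absolute difference was 0.36 over the members and 0.17 over all probe sets.

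The mean of Hs3st1 was 7.17 over both number 1 arrays and 8.28 over the 4 others. The difference was -1.11 log2 units (SE 0.11, adjusted p = 1.47e-05 by limma), a signal 2.15-fold lower in number 1 (95% interval 1.81 to 2.56). It was -0.88 among control arrays and -1.33 among PMA arrays. Number 1 and the other arrays were 0.74 log2 units apart at their nearest. Of all probe sets, 8.35% had an absolute difference at least as large.

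Hs3st3a1 averaged 4.48 in number 1 and 5.07 in the others, a difference of -0.59 (SE 0.079, adjusted p = 1.17e-04 by limma). It was -0.61 among control and -0.57 among PMA arrays, so both groups gave nearly the same value. Its relative Hs3st3b1 averaged 5.01 and 4.82, and the difference of 0.19 (SE 0.10) did not pass (adjusted p = 0.163). That of Hs3st3b1 was -0.040 among control and 0.42 among PMA arrays, so the mean rested on the single array PMA 1. Without control 1, where PMA 1 was the only number 1 array, the difference was 0.42, and without PMA 1 it was -0.040.

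Hs3st6 averaged 6.06 in number 1 and 5.53 in the others, a difference of 0.53 (SE 0.074, adjusted p = 1.50e-04 by limma). It was 0.52 among control and 0.55 among PMA arrays, and the groups of arrays were 0.44 apart at their nearest. Hs3st2 differed by -0.058 (SE 0.088) with a 95% interval of -0.25 to 0.14, and Hs3st5 by 0.13 (SE 0.10) with an interval of -0.10 to 0.36. Neither passed, and in both the number 1 values lay within or across the range of the others. In 55.9% of all probe sets both number 1 arrays lay outside the range of the other 4, as they did for Hs3st1, Hs3st3a1 and Hs3st6.

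**Figure D3:**
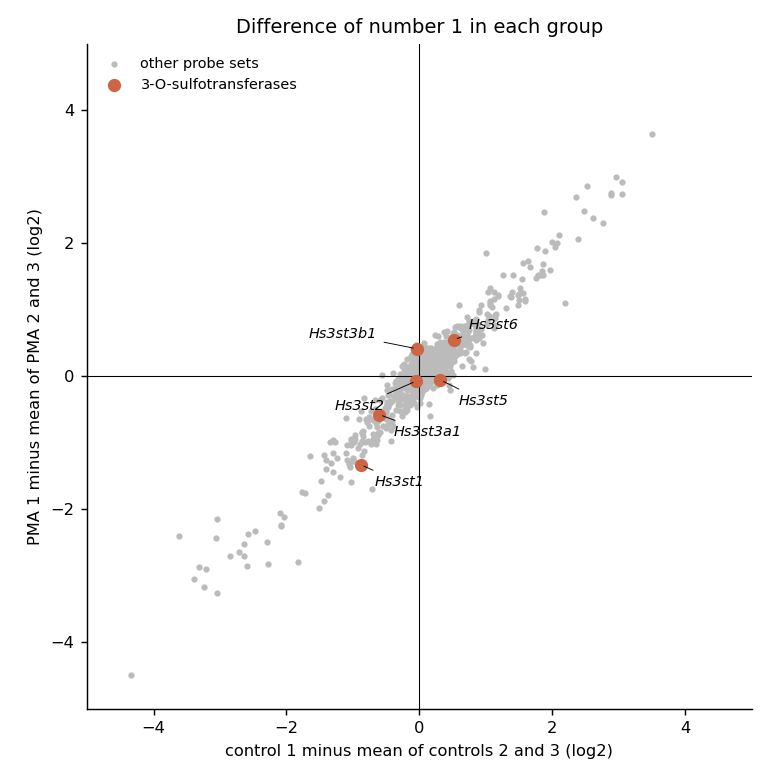
Difference of array 1 from the mean of arrays 2 and 3 on the log2 scale, among control arrays on the horizontal and among PMA arrays on the vertical axis, with grey points for the other probe sets and larger points for the 3-O-sulfotransferases. Hs3st1 and Hs3st3a1 are negative and Hs3st6 positive on both axes, while Hs3st3b1 is near 0 among controls and at 0.42 among PMA arrays.

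Numbers 2 and 3 were compared with each other as well. Hs3st2 and Hs3st5 differed more between these 2 numbers than between number 1 and the rest, and the other 4 members differed less. Hs3st2 showed the smallest p, with 5.77 and 5.80 in number 2 against 5.52 and 5.62 in number 3, a difference of 0.21 (SE 0.079). Its unadjusted p was 0.0240 and its adjusted p = 0.953 by limma, and 0 of 6 members passed, as did 0% of all probe sets. Before adjustment 61 of the 1246 probe sets were under 0.05 in this contrast. Hs3st5 differed by 0.19 (SE 0.11) and Hs3st1 by -0.16 (SE 0.12) in the same contrast.

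The genes whose profile over the 6 arrays lay nearest to a member were found by root mean square distance after centring each gene on its own mean, over 903 named genes. Nearest to Hs3st1 were B3gnt2, a poly-N-acetyllactosamine enzyme, at 0.079 log2 units, the endosomal GTPase Rab7 at 0.099 and the nucleotide sugar transporter Slc35d1 at 0.10, against a median of 0.60. B3gnt2 read 7.66, 8.42 and 8.63 in controls and 7.41, 8.55 and 8.62 in PMA arrays, low in number 1 as Hs3st1 was. Nearest to Hs3st3a1 were the ligand Wnt5b at 0.051, Gmds, which starts GDP-fucose synthesis, at 0.059, and the chemokine Ccl5 at 0.067, against a median of 0.35. Nearest to Hs3st6 were Chpf, a chondroitin polymerizing factor, at 0.035, the sialyltransferase St6galnac6 at 0.040 and the growth factor Gdf1 at 0.040, against a median of 0.24. Number 1 dominates these distances, since it holds most of the spread of all 3 members.

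The upstream sequence of the related genes Hs3st3a1 and Hs3st3b1 is shown because one differed in number 1 and the other did not pass, and because phorbol ester response elements were looked for there. The 250 bases before the transcription start are from RefSeq on GRCm38.p6, 5′ to 3′ on the gene's strand, at chr11:64435082-64435331 (plus strand) for Hs3st3a1 and at chr11:63922285-63922534 (minus strand) for Hs3st3b1. Capitals mark the cAMP response element TGACGTCA and the GC box GGGCGG on either strand.
Hs3st3a1: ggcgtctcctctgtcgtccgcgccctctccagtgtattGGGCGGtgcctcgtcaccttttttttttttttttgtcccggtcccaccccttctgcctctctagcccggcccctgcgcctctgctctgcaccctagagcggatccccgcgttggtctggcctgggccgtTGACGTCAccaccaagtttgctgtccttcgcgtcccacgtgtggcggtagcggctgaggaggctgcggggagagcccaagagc
Hs3st3b1: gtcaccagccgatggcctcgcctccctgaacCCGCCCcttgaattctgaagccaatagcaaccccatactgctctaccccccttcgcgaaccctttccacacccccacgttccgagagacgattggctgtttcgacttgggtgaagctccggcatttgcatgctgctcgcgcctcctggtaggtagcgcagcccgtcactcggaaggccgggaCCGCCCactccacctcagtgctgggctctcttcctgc

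The RefSeq table held such a window for 5 of the 6 members, all but Hs3st6. The phorbol ester element bound by AP-1, TGACTCA on either strand, was in 0 of the 5, and 4.46% of 32851 windows of the same length held it. The element TGACGTCA was in 2 of the 5 and in 1.55% of all windows. It began 83 bases before the start of Hs3st3a1 and 69 bases before that of Hs3st2. The stretch of Hs3st2 that holds it, in capitals, is at chr7:121392216-121392245 (plus strand, GRCm38.p6). The window of Hs3st2 overlaps the gene's RefSeq span, as do those of Hs3st1 and Hs3st5.
Hs3st2: acccgcgcggcTGACGTCAggcgactcctt
The TATA box TATAAA was in 0 of the 5 and in 12.4% of all windows. The GC box was in 4 of the 5 and in 32.7% of all windows, and Hs3st1 was the member with none of these letters in its window. The motifs do not overlap each other here, and a match describes letters only.

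The other genes of the heparan sulfate pathway gave the setting for the family. For PMA 0 of their genes passed by limma, and 0 had p under 0.05 before adjustment, against 4 of the 1246 probe sets. With the replicate block 0 passed again, and Cd44 and Fgf2 were under 0.05 before adjustment. So were 42 of the 1246 probe sets in that fit. In number 1 the shares that passed among modifying enzymes, chain assembly genes, core proteins and ligands were near the 41.7% of all probe sets, of which 27.5% were higher and 14.1% lower. Of the 13 other modifying enzymes 6 passed, 5 higher and 1 lower. Ndst1, which starts sulfation of the chain, was higher by 0.98 (SE 0.080) and the 6-O-sulfotransferase Hs6st1 by 0.81 (SE 0.086). The heparan sulfate-cleaving enzyme Hpse differed by -0.88 (SE 0.078) and was the lower one. The N-, 2-O- and 6-O-sulfotransferases that passed, Ndst1, Ndst2, Hs2st1 and Hs6st1, were higher in number 1, as Hs3st6 was, while Hs3st1 and Hs3st3a1 were lower. The difference between these groups was not tested.

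Of the 10 chain assembly genes 5 passed in number 1, 4 higher and 1 lower, led by the polymerase Ext1 at 2.01 (SE 0.066) and Extl3 at 0.66. B3galt6, a linker enzyme, had the largest PMA difference of that list, 0.13 (SE 0.099). Of 13 core proteins 6 passed, all higher, led by Col18a1 at 2.52 and Agrn at 1.08, and Cd44 had the largest PMA difference, 0.23 (SE 0.12). Of the 9 ligands and receptors 3 were higher and 1 lower, led by Fgfr2 at 0.54 and Fgf2 at 0.47. The value of Fgfr2 was 0.98 among control and 0.11 among PMA arrays, so it rested largely on control 1. Fgf2 also had the largest PMA difference of its list, -0.19 (SE 0.22), with SE 0.074 and unadjusted p = 0.0312 in limma's fit with the replicate block. Of the 3 sulfate donor genes, Papss1 at -0.17, Papss2 at 0.15 and Slc35b3, 0 passed by limma, and 1 was under 0.05 without adjustment. Slc35b3 had the largest PMA difference of these, -0.044. The median differences in number 1 were 0.12 for the other modifying enzymes, 0.15 for chain assembly, 0.12 for core proteins, 0.037 for the 3-O-sulfotransferases and 0.079 over all probe sets.

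**Figure D4:**
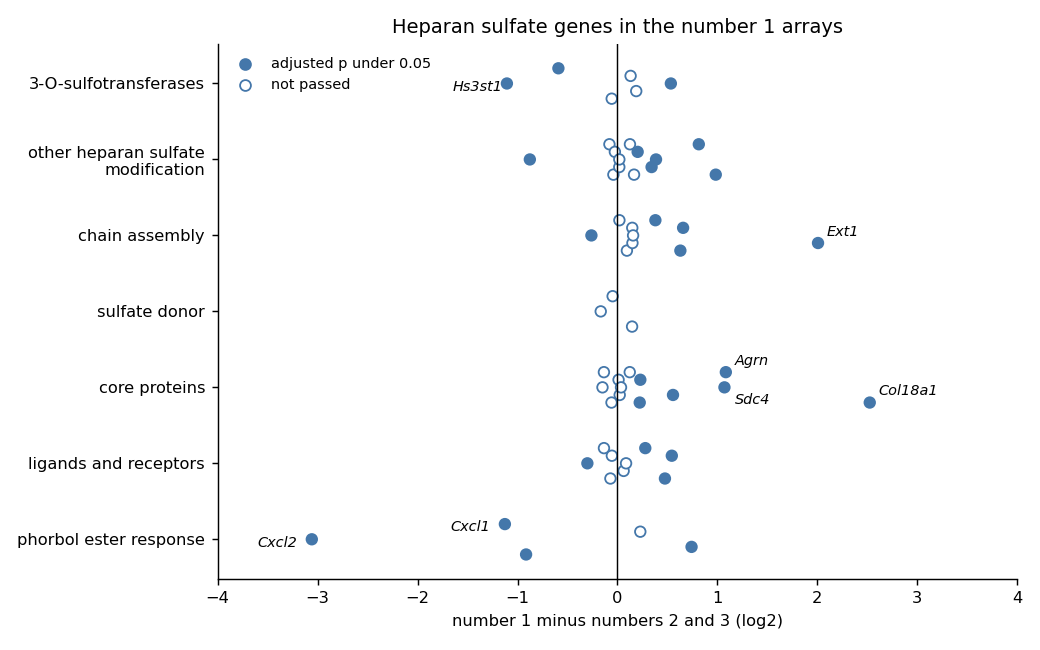
Difference of the number 1 arrays from numbers 2 and 3 (log2) for each measured gene, by list, with filled circles where the adjusted p was under 0.05 and names for differences of at least 1. Among the 3-O-sulfotransferases 2 filled circles lie left of 0 and 1 right of it, while the 6 filled circles of the core proteins all lie right of it.

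A list of 14 genes that phorbol esters are known to induce had 5 measured members, of which 0 passed for PMA at 24 h. No earlier time was measured, so an earlier change in these 5 could not be seen. PMA minus control was above 0 for 3 of them and below 0 for 2, from 0.21 (SE 0.48) for Cxcl1 to -0.16 (SE 0.37) for Junb, which had an unadjusted p = 0.0399 in limma's fit with the replicate block. In number 1 the list held 3 lower and 1 higher gene that passed, among them Cxcl2 at -3.06 and Cxcl1 at -1.13. Of all probe sets 41.7% passed in that contrast, 27.5% higher and 14.1% lower. Of the 2 lung epithelial markers Sftpa1 was higher in number 1, by 0.52 (adjusted p = 1.17e-04 by limma), and Sftpd, at 0.13, did not pass. Their summed level was 5.87 to 5.91 (log2) there and 5.61 to 5.79 in the others. Among markers of other cells, the summed levels of leukocyte and endothelial markers were lower in number 1 and those of fibroblast markers overlapped. The summed level of the 5 measured leukocyte markers was 7.39 to 7.57 (log2) in number 1 and 8.46 to 8.63 in the others, with 1 lower, Mrc1, and 0 higher among them. That of the 4 endothelial markers was 8.99 to 9.16 against 9.95 to 10.50, with 3 lower and 1 higher. That of the 5 fibroblast markers was 9.85 to 10.09 against 9.88 to 10.72, with 1 lower and 1 higher. The lowest value of any probe set was 2.58, so absence of a marker could not be read from a value of 0. The part of these markers in the differences of Hs3st1, Hs3st3a1 and Hs3st6 was not tested. All arrays came from the MLE-15 line, so these values do not show that other cell types were present. In bulk RNA fewer cells that express a marker and less of its RNA per cell cannot be told apart.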

How the data were processed

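RNA of 6 MLE-15 samples, extracted with Trizol per the labels' protocols, was measured as biotinylated cRNA on Affymetrix arrays. The deposited log2 values were made by the authors with RMA, per the submitters' processing notes. The version of RMA, the array and its annotation were not given in the sources used here. As RMA usually includes quantile normalization, it can hide a change common to all transcripts. Over the probe sets of this table the arrays still differed, with upper quartiles from 7.86 to 8.05.

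Values were used as deposited. Of 1246 probe sets, 963 were named through RefSeq accessions matched without versions to GRCm38.p6, and the probe set with the highest mean stood for a gene. Fits used limma 3.58.1 in R 4.3.3 (lmFit, eBayes) with Benjamini-Hochberg adjustment over all probe sets at 0.05, and SE is limma's. The procedure was tested on simulated data. From each heparan sulfate list the 2 largest differences in number 1 and the 1 largest for PMA were named, and for each member that passed the 3 nearest profiles. Other genes were named after their values were seen. The members, lists and contrasts were chosen with earlier results of these data known.

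Groups share replicate numbers, whose meaning the labels do not give. Arrays of the same number deviated from their group means together (correlations 0.956, 0.815 and 0.912 across probe sets). The number was also fitted as a block. Control 2 and PMA 3, of different numbers, correlated at 0.886, and control 1 and PMA 2 at -0.860. The correlations therefore do not show that the arrays numbered 2, or those numbered 3, are pairs. With number 1 set aside, the differences between numbers 2 and 3 in the 2 groups correlated at 0.041.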

Additional observations from a re-analysis of the deposited data

How the results depend on the processing

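No member passed for PMA under any of the 9 alternatives or with any 1 array left out. The replicate number as a block gave 0 members for PMA and 3 for number 1, so it changed no call. The 3 members that passed in number 1 did so under all 8 alternatives, where 39.2% to 49.6% of all probe sets or genes tested passed. They also passed without control 2, control 3, PMA 2 or PMA 3, where 37.4% to 43.6% of all probe sets passed. Without control 1 or PMA 1 the number 1 group held 1 array, and the 3 differences kept their signs. With 1 array left out, the number 1 difference ran from -1.33 to -0.88 for Hs3st1, -0.64 to -0.55 for Hs3st3a1, 0.50 to 0.57 for Hs3st6, -0.11 to -0.0063 for Hs3st2, -0.040 to 0.42 for Hs3st3b1 and -0.054 to 0.32 for Hs3st5. Such fits also turned the sign of PMA differences that had not passed, which ran from -0.45 to 0.29 for Hs3st1, -0.082 to 0.31 for Hs3st3a1, -0.14 to 0.094 for Hs3st3b1, -0.22 to 0.0040 for Hs3st5 and -0.15 to 0.20 for Hs3st6. Over numbers 2 and 3 alone the PMA difference of Hs3st5 was 0.022. With arrays centred on their median the dependence of the PMA difference on the number was -0.012 for Hs3st3a1 and -0.014 for Hs3st6. The cause of these changes was not tested. Hs3st5 was not in the fit that left out the 25% of probe sets with the lowest means. Signal over background is unknown, so a change in a dim probe set such as that of Hs3st5 may be understated.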
